A study of Danio rerio with 4 samples.

Results

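Antisense transcript models are long-read structures that were assigned to the strand opposite to an annotated zebrafish (Danio rerio) gene. They were taken as the models that the authors' Cuffcompare tables place in class x, an exonic overlap with a reference transcript on the opposite strand, or in class s, an intron that overlaps a reference intron on the opposite strand. There were 422 such models among 25854 in all, 202 of 12752 in an untreated library and 220 of 13102 in a library from embryos treated with α-amanitin. Here a gene overlapped in this way is called the sense gene, and a model of class = (the intron chain of a reference transcript) or class j (at least 1 shared junction) is called a sense model of that gene.

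Antisense RNAs arise where both strands of a stretch of genome are transcribed, for instance from head-to-head or tail-to-tail protein-coding genes, from bidirectional promoters, or from long non-coding RNA genes. Some are known to act on their sense gene through transcription itself, through chromatin or through RNA duplexes, and many have no known function. In the zebrafish embryo the first cell cycles run on maternal RNA, and most transcription of the embryo's own genome starts at zygotic genome activation (ZGA).

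Both long-read libraries were sequenced on the PacBio platform from RNA of pools of 15 embryos of wild-type AB, TAB14 or TAB5 parents. The untreated embryos received no inhibitor, and the treated embryos had been injected at the one-to-four-cell stage with α-amanitin (0.2 nmol), a toxin that inhibits RNA polymerase and so blocks ZGA. Both are labelled 6 hours post fertilization, but the treated sample also carries a source name of the 256-cell stage, so treatment and stage cannot be told apart. The series also holds an untreated short-read sample at 2.5 hours and another at 5.25 hours after fertilization, made from about 20 embryos each. Each group held 1 library. Differences between libraries therefore lack a replicate check, and no test was made. Intervals are 95% intervals that cover the counting or sampling of models or genes alone. The abundance columns of the model tables were 0 throughout, so how many reads made a model is unknown, and depth can be judged by model numbers alone. The model tables give neither coordinates nor exon numbers.

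The first comparison asked how often, and on which genes, antisense models were found with and without the inhibitor. Antisense models were a small and similar share of both libraries. They made up 1.58% of untreated models (Wilson interval 1.38 to 1.82) and 1.68% of α-amanitin models (1.47 to 1.91). Class x held nearly all of them, with 192 untreated and 210 α-amanitin models, and class s held 10 per library. The intervals of the libraries overlapped, but they cover the counting of models alone and are no test of a difference. By comparison, intronic models (class i) numbered 154 and 115, models with another exonic overlap (class o) 259 and 247, and run-on models near a gene (class p) 237 and 236, untreated library first.

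The antisense models lay opposite 187 genes without and 209 genes with the inhibitor, 347 genes in all. Both libraries held an antisense model for 49 genes, which were 26.2% of the untreated (20.4 to 32.9) and 23.4% of the α-amanitin antisense genes (18.2 to 29.6). Another 138 genes had one without the inhibitor alone, and 160 with the inhibitor alone. This overlap was close to that of class o (23.2% and 24.9%) and class p (29.8% and 29.3%), and below that of class j (62.0% and 56.1%) and class = (84.4% and 80.6%). An antisense model seen in 1 library alone is therefore not shown to be absent from the other, as the reads behind each are unknown. Of the sense genes, 341 were protein-coding and 3 were microRNA genes in the RefSeq gene table. The microRNA genes were mir2193, with an antisense model in both libraries, and mir29b-1 and mir430a-11, with 1 in the untreated library alone; the last pair was chosen after the values were seen. The miR-430 family clears maternal mRNAs after ZGA.

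Antisense models had a lower median length than models that matched a reference intron chain, and a higher one than intronic and run-on models. Their median length was 1048 bases without the inhibitor (interval 914 to 1159) and 978 bases with it (863 to 1190), with ranges of 304 to 4249 and 300 to 3350 bases. The class = medians were 1701 and 1751 bases, those of class i 644.5 and 655 bases, and those of class p 709 and 701 bases. The α-amanitin interval of class i, 538 to 913 bases, overlapped the antisense interval. The class o medians, 918 and 981 bases, lay within the antisense intervals. Against the reference transcript that each opposes, an antisense model had a median relative length of 0.533 without and 0.474 with the inhibitor, and 37 (18.3%) and 43 (19.5%) models were longer than that transcript. The 10 class s models of each library had higher medians, of 1742.5 bases (501 to 2095) and 1886.5 bases (1342 to 2462). The untreated class s interval contained that of all antisense models, and the α-amanitin one lay above it. Against the opposed transcript, the median relative length was 0.857 and 0.912 for class s, untreated library first. For class x it was 0.520 and 0.461. Whether class s models arose from errors of mapping or strand was not tested.

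**Figure D1:**
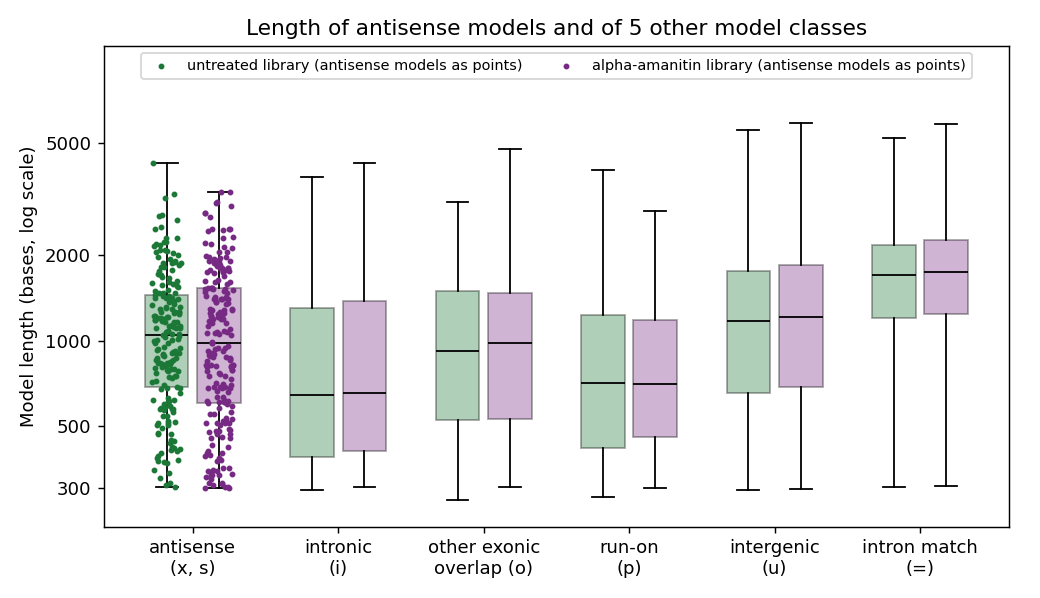
Length in bases, on a log scale, of antisense models and of 5 other classes in the untreated (green) and α-amanitin (purple) library. Boxes span the quartiles with a line at the median, whiskers reach the shortest and longest model, and points are the antisense models. The antisense medians of 1048 and 978 bases lie between those of intronic models and those of class =.

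The longest antisense model of the untreated library, 4249 bases, lay opposite cinp, which encodes a protein that binds cyclin-dependent kinase complexes. The longest of the α-amanitin library, 3350 bases, lay opposite napaa, an α-SNAP protein of membrane fusion. It was followed by models of 3338 bases opposite exosc8, a subunit of the RNA exosome, 3099 bases opposite an uncharacterised gene, 3054 bases opposite barhl1a and 3000 bases opposite hoxa1a. The barhl1a and hoxa1a genes encode homeodomain transcription factors. The shortest models were 300 bases long and lay opposite mybpc2b, a myosin-binding protein gene of fast muscle, and spi1b, a myeloid transcription factor gene, both in the α-amanitin library. In the untreated library the shortest, 304 bases, lay opposite lpp. More than 1 antisense model was found for 12 genes of the untreated and 11 genes of the α-amanitin library. The most were 3, opposite exosc8 (906, 3188 and 3287 bases), irx6a (1116, 1253 and 1664 bases) and tomm6 (1618, 1767 and 1880 bases), all in the untreated library. Of the genes seen in 1 library alone, sox11b (1725 and 2059 bases) and stab2 (902 and 1407 bases) had 2 models in the untreated library, and gsnb (458 and 2052 bases), nitr7a (942 and 1840 bases) and trim54 (1262 and 1507 bases) had 2 in the α-amanitin library.

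The second comparison asked whether the 49 shared genes carried models of like size in both libraries. For each gene the pair of models closest in length was taken. The lengths were within 5% of each other for 22 genes (44.9%, 31.9 to 58.7), with a median difference of 65 bases over all 49. Choosing the closest pair favours genes with several models, and among the 36 genes with 1 model in each library 13 (36.1%, 22.5 to 52.4) were within 5%. In that subset the share within 5% was 68.3% in class = (66.7 to 69.9), 38.9% in class i (20.3 to 61.4), 26.8% in class o (15.7 to 41.9) and 15.6% in class p (8.71 to 26.4). The antisense interval overlapped those of classes i, o and p and lay below that of class =.

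Several genes had antisense models that matched to within a few bases. Equal lengths were found for 3 genes: lipg, which encodes endothelial lipase (313 bases), ppp1r10, a nuclear regulatory subunit of protein phosphatase 1 (979 bases), and top1l, a type I topoisomerase (595 bases). Opposite aprt, the adenine phosphoribosyltransferase of purine salvage, the closest untreated model had 2475 bases and the α-amanitin model 2474. Opposite mep1a.2, a meprin metalloprotease gene, the closest pair had 2199 and 2200 bases. Opposite mrpl4, a protein of the large mitochondrial ribosomal subunit, each library held a pair of models, of 1225 and 1295 bases without and 1220 and 1293 bases with the inhibitor. Differences of a few bases were also found for arrb2a, a β-arrestin gene (1364 and 1367 bases), zgc:113423 (1906 and 1907 bases) and srd5a2a, a steroid 5α-reductase gene (853 and 855 bases). Further untreated models without such a match lay opposite aprt (1138 bases), mep1a.2 (1565 bases) and zgc:113423 (1684 bases). Opposite arrb2a each library held a further model, of 1032 bases without and 677 bases with the inhibitor. Lengths within a few bases do not show equal structures, since the tables give no exon positions.

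Other shared genes had models of very different size, and 6 differed by over 50%. Opposite ostf1 the model was 2226 bases long in the untreated and 337 in the α-amanitin library, and opposite zgc:111868 the order was reversed, with 339 and 1948 bases. The model opposite rab20, a small GTPase gene, had 791 bases in the untreated and 309 in the α-amanitin library. That opposite hcfc1a, a transcriptional co-regulator gene, had 841 and 323 bases. The untreated model was the longer for 22 shared genes and the α-amanitin model for 24, so neither library had the longer models throughout.

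**Figure D2:**
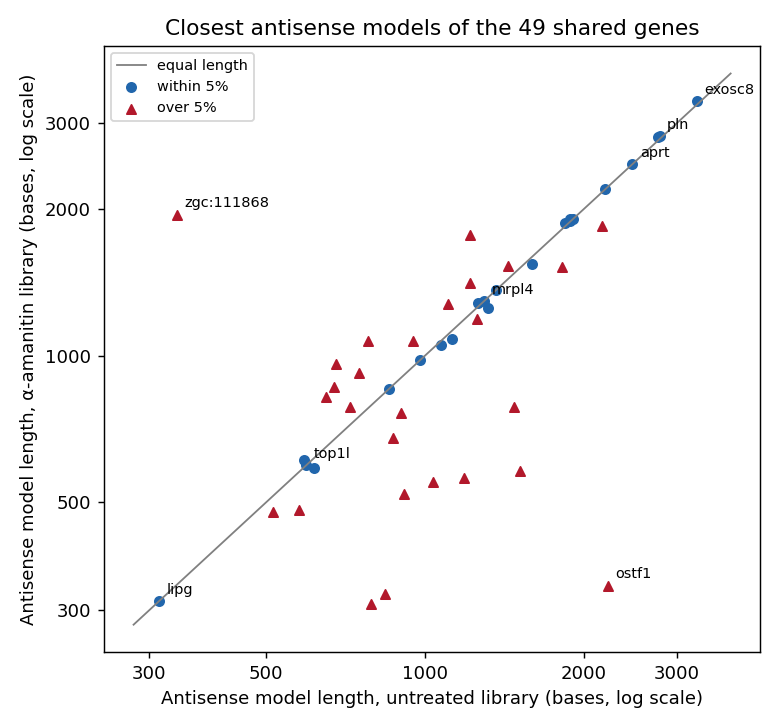
Length in bases of the closest pair of antisense models for each of the 49 genes with an antisense model in both libraries, untreated on the x axis and α-amanitin on the y axis, both on log scales. The line marks equal length; blue circles are the 22 genes within 5% and red triangles those farther apart, such as ostf1 (2226 and 337 bases).

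The third comparison asked whether the sense gene itself was seen. A sense model was also present for 91 of 187 untreated antisense genes (48.7%, 41.6 to 55.8) and for 110 of 209 α-amanitin antisense genes (52.6%, 45.9 to 59.3), each within its own library. Taken over either library the count was 205 of 347 (59.1%, 53.8 to 64.1), below the 83.9% of all 7662 genes that any model named (83.1 to 84.7). Genes named by classes o (57.8%) and p (54.1%) lay close to the antisense genes, and those named by class i lower (32.2%, 25.6 to 39.5). All genes named by any model include those named by sense models alone, so that reference is high by construction. Among the 49 shared genes, 23 had a sense model in either library (46.9%, 33.7 to 60.6), an interval that overlapped those of the genes seen in the untreated (59.4%, 51.1 to 67.3) or α-amanitin library alone (62.5%, 54.8 to 69.6).

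No model of any other class was found for 106 of the 347 genes, so only antisense models named them. These were 18 shared genes, 44 genes seen without the inhibitor alone and 44 with it alone. Under 5 TPM in both columns of the expression table described further on were 73 of the 106. The share of all genes under 5 TPM was not counted, but the medians of all 14775 genes were 3.28 and 2.72 TPM, control column first. Under 1 TPM in both columns were 37 of the 106 (34.9%) and 25.6% of all genes. Examples that regulate development were chosen after the values were seen, from no fixed list, so their number and their split between the libraries say nothing. The homeobox genes irx6a, irx5b, barhl1a, hoxa1a and lhx2a had longest models of 1770, 1218, 3054, 3000 and 1537 bases in the α-amanitin library. The paired-domain gene pax3b had 1 of 1630 bases there, and the forkhead gene foxp2 had models of 1071 and 1050 bases, untreated library first. Of the signalling genes, ndr1, the Nodal ligand Squint of mesendoderm induction, had an antisense model of 480 bases, and dkk1b, a secreted Wnt inhibitor, 1 of 878 bases, both from treated embryos. No sense model was found for either.

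**Figure D3:**
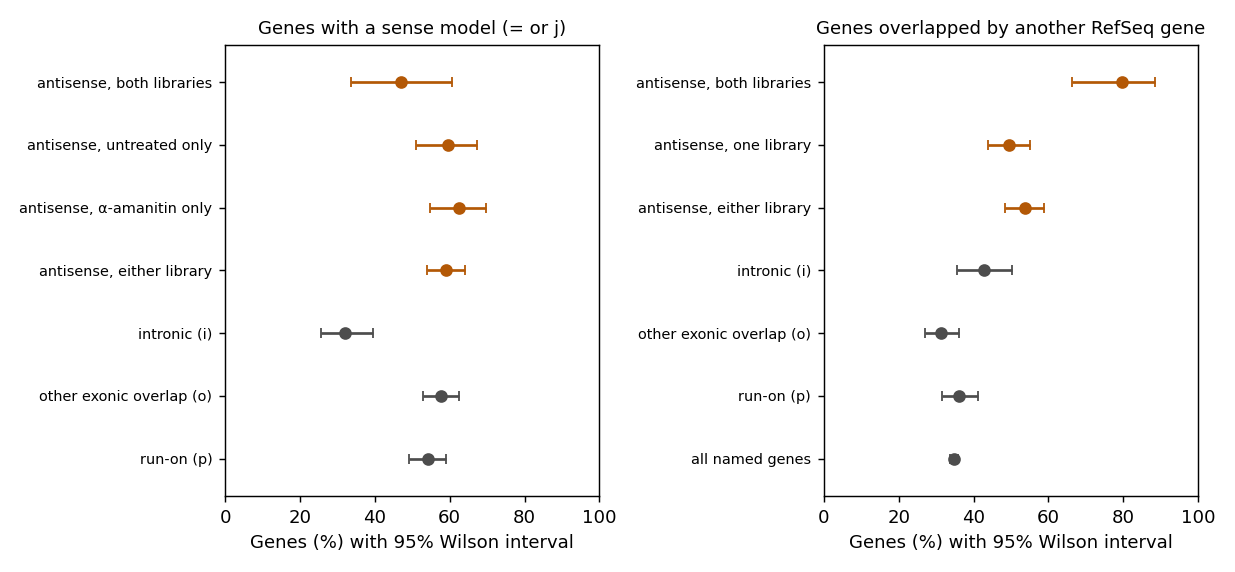
Share of genes with a sense model in either library (left) and share overlapped by another gene of the RefSeq table on either strand (right), in percent, with 95% Wilson intervals. Antisense gene sets are orange and other sets grey; the 49 shared genes stand at 46.9% on the left and 79.6% on the right. Antisense genes were picked for another transcript over them, so their excess over all named genes on the right supports nothing by itself.

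Locus numbers of the tables followed the genome, since 98.8% of consecutive class = loci in the untreated and 98.9% in the α-amanitin library lay on 1 chromosome, and 97.9% and 97.6% of these had an increasing start. A locus with a sense model of the same gene was the direct neighbour of 90 of 187 untreated antisense loci (48.1%, 41.1 to 55.3) and of 107 of 209 α-amanitin antisense loci (51.2%, 44.5 to 57.9). Since an antisense model overlaps its sense gene, these counts nearly restate the 91 and 110 genes with a sense model in the same library, and add the position of those models alone. Most antisense loci held antisense models alone. Intergenic models (class u) shared the locus at 10 untreated and 9 α-amanitin antisense loci, for instance opposite top1l, aprt, mep1a.2 and kcnc1b, and opposite pln, mpi and gsnb. A named gene on the antisense strand shared the locus in 4 cases: mrps18b with the model opposite ppp1r10 and zgc:91910 with that opposite zgc:113424 in the untreated library, and ift80 with the model opposite schip1 and wsb2 with that opposite rfc5 in the α-amanitin library. There the antisense model belonged to the locus of an annotated neighbour. The genes zgc:113424, schip1 and rfc5 were named after their values were seen.

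A second annotation was used to ask which other genes overlap the sense genes. The RefSeq gene table of assembly GRCz12tu is a newer build than the GRCz10 of the models and gives no strand, so an overlapping gene is not shown to lie opposite. Of 346 antisense genes matched to it, 186 (53.8%, 48.5 to 58.9) were overlapped by another gene, against 34.7% of all named genes (33.7 to 35.8), 42.8% for class i, 31.4% for class o and 36.2% for class p. Among the 49 shared genes the count was 39 (79.6%, 66.4 to 88.5), and among genes with an antisense model in 1 library 147 of 297 (49.5%, 43.9 to 55.2). The spans of the sense genes were close to those of all named genes, with medians of 15478.5 and 15461 bases. Within the shortest, middle and longest tertile of span the antisense genes stood at 50.0%, 41.4% and 67.2%, and all named genes at 29.2%, 29.7% and 45.4%. An overlapping protein-coding gene was listed for 36.7% of antisense genes and 24.0% of all named genes, and an overlapping lncRNA gene for 22.8% and 13.0%. The antisense genes were picked for a transcript other than their own over the gene. Their excess over all named genes, also within tertiles, is therefore tied to the rule for members and supports nothing by itself.

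The overlapping genes were then divided by whether the authors' reference appeared to hold them, read as having a RefSeq transcript in the expression table or being named by a model. A gene outside that set overlapped 160 antisense genes (46.2%, 41.1 to 51.5), 37 of the 49 shared genes (75.5%, 61.9 to 85.4) and 24.4% of all named genes, and a gene inside it 13.9% of antisense and 14.0% of all named genes. This contrast too is tied to the rule for members and supports nothing by itself: a model that matched a reference transcript on its own strand would have been given another class than x or s. Long-read transcripts with their own identifiers were not joined to genes, so they may include transcripts of the genes outside the set. Of the 49 shared genes, 31 were overlapped by a protein-coding gene and 13 by a lncRNA gene, in or outside the set. The examples outside the set given here are protein-coding genes at shared genes and not the full list. They included supt20, a subunit of the SAGA co-activator, at exosc8, and cdt1, the replication licensing factor, at aprt. Another was hyls1, a centriole protein gene, at mrpl4. The potassium channel gene kcnc1b was overlapped by sergef, litaf by rmi2, a partner of the BLM helicase, and pln, which encodes the calcium pump inhibitor phospholamban, by cep85l. The type I topoisomerase gene top1l was overlapped by zhx3a, the polyubiquitin gene ubc by myo18b, and zgc:112994 by pfdn4, a prefoldin subunit gene. Those inside it included naxd at rab20, opn1sw2, a cone opsin gene, at hcfc1a, and mir34a and gpr157 at spsb1.

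The last comparison set the RefSeq expression values of the sense genes in the control column beside those in the α-amanitin column of the deposited expression table. Before any scaling of the columns, the shares of sense genes past 2-fold lay near those of all genes, and their median was close to that of all genes. After the scaling described below, the lower share was 24.3%, above the 18.7% of all genes. A sense model had been found for 196 of the 338 sense genes in the table and for 6321 of all 14775 genes. Among those 6321 genes the lower share after scaling was 32.5%. The excess over all genes is therefore not shown to be a trait of antisense genes. Values are TPM, transcript abundance scaled to a fixed total, summed over the RefSeq transcripts of a gene, and the log2 ratio compares the control with the α-amanitin value after adding 1 TPM to each. The sources used here do not say which reads the columns hold, so the ratio may contrast stages and not the treatment, and they do not say whether strand was used, so reads of a gene and of its antisense partner cannot be told apart. Long-read transcripts listed under their own identifiers were not joined to genes, and a RefSeq value near 0 can stand beside such a transcript of the same gene. In the control column 33 of 34 zygotic marker genes exceeded the α-amanitin value 2-fold or more, where 22.5% of all genes did. Their summed level was 8081 TPM there and 45.9 TPM in the α-amanitin column. Of 26 maternal marker genes, the control value was the lower by 2-fold or more for 19 and the higher for 2. Of 8 genes on a general list it was the higher for 4 and the lower for 1. Earlier results of these data were known when the lists were made, so these counts are no independent check of the columns.

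Of the 347 sense genes, 338 were in the table. In the control column 86 of them (25.4%, 21.1 to 30.3) were at least 2-fold higher, where 22.5% of all 14775 genes were, and 100 (29.6%, 24.97 to 34.7) were at least 2-fold lower, where 25.7% of all genes were. Both intervals, which are of the unscaled columns, contain the share of all genes. Their median log2 ratio was -0.07 (-0.39 to 0.07), beside 0.00 for all genes. Genes above 1 TPM in both columns had a median log2 ratio of -0.49, and after scaling this to 0 the counts became 106 higher (31.4%, background 30.5%) and 82 lower (24.3%, background 18.7%). The higher genes were then 56.4% of those past 2-fold, against 46.2% before, and the median became 0.41, against 0.49 for all genes. The 49 shared genes had 14 higher and 11 lower and a median of 0.14 (-0.14 to 0.60), the genes of the untreated library alone 32 higher and 48 lower (-0.28), and those of the α-amanitin library alone 40 and 41 (0.00). After scaling these became 19 and 9 (median 0.63), 40 and 40 (0.21), and 47 and 33 (0.49), in the same order. Before scaling, 35.6% of the genes of the untreated library alone were lower (27.98 to 43.9), an interval above the 25.7% of all genes. Their lower share after scaling was 29.6%, beside 18.7% of all genes. Of this set 59.4% had a sense model in either library. Among all 6321 genes of the expression table with a sense model, 41.1% were lower before and 32.5% after scaling. All genes are therefore no matched reference for this set, and its excess is not shown to be a trait of antisense genes. The unscaled intervals of the other shares of the shared and single-library genes contained those of all genes.

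The sense genes split by whether a sense model had been found, a division made after the values were seen. All levels are of RefSeq transcripts alone. A gene with a sense model can also have a long-read transcript listed apart, so the split may be tied to how the values were formed. This was not tested. The 196 genes with a sense model had median levels of 11.7 TPM in the control and 23.5 TPM in the α-amanitin column, with a median log2 ratio of -0.53 (-0.86 to -0.14), equal to 2 decimals to that of all 6321 genes with a sense model. Of them 45 were higher (23.0%) and 75 lower (38.3%), close to the 20.0% and 41.1% of those 6321 genes, and after scaling 57 and 64. The 142 genes without one had median levels of 2.32 and 0.925 TPM and a median ratio of 0.14 (0.00 to 0.30). Of them 41 were higher (28.9%, 22.1 to 36.8) and 25 lower (17.6%, 12.2 to 24.7), where 22.5% and 25.7% of all genes were. After scaling these were 49 (34.5%) and 18 (12.7%), beside 30.5% and 18.7% of all genes. All genes include the 6321 with a sense model, of which 20.0% were higher and 41.1% lower before scaling. Among all genes without a sense model, the higher share must therefore lie above 22.5% and the lower share below 25.7%. The same directions hold after scaling, where 26.8% of the 6321 were higher and 32.5% lower. All genes are thus no matched reference for the 142 genes, and a matched set was not counted. The lower share of the 142 genes is thus not shown to be a trait of antisense genes. The 106 genes with no other model at all had median levels of 1.29 and 0.497 TPM. Of those 106 genes, 36 were higher (34.0%, 25.6 to 43.4) and 13 lower (12.3%, 7.31 to 19.9), where 22.5% and 25.7% of all genes were. After scaling these were 42 (39.6%) and 10 (9.43%), beside 30.5% and 18.7% of all genes. Both unscaled intervals exclude the share of all genes, but all genes are no matched reference here either. Neither share is shown to be a trait of antisense genes. Many genes seen through their antisense models alone were thus listed at low levels, and a low level lets the added 1 TPM pull a ratio to 0. At least 10 TPM in either column was reached by 27 of the 106 (25.5%), where 46.5% of all genes reached it. The 19 genes opposite a class s model included 12 lower (63.2%, 41.04 to 80.9) and 2 higher, with a median of -1.52 (-2.18 to -0.14). The interval of the lower share lies above the 25.7% of all genes and reaches the 41.1% of all genes with a sense model. After scaling 10 were lower (52.6%) and 3 higher, with a median of -1.03. The lower share after scaling was 18.7% of all genes and 32.5% of those with a sense model. How many of the 19 had a sense model was not counted, so neither set is a matched reference. Of the longest class s models, that opposite abhd17c, a depalmitoylase gene, was found in both libraries at 2763 and 2813 bases, and its RefSeq level was 3.46 TPM in the control and 19.2 TPM in the α-amanitin column. Those opposite adipor2 (2462 bases), gnb1a (2320 bases) and gatad2ab (2216 bases) were found in the α-amanitin library alone. The levels of gnb1a (10.8 and 6.39 TPM) and gatad2ab (8.24 and 17.0 TPM) were within 2-fold, and that of adipor2 is given below.

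**Figure D4:**
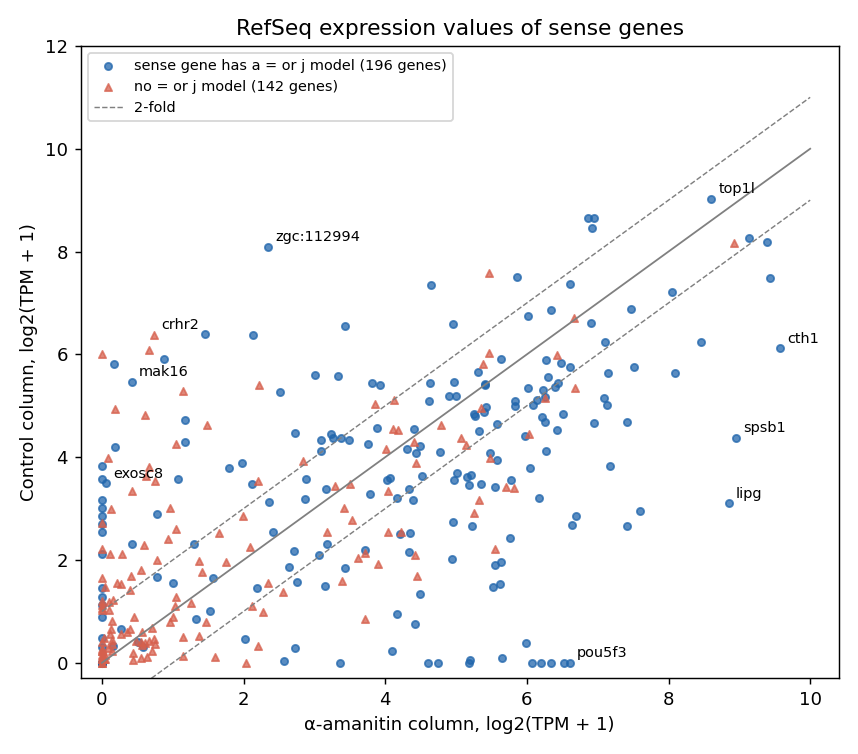
Level of each of the 338 sense genes in the control (y axis) and α-amanitin column (x axis), both as log2(TPM + 1). Blue circles are the 196 genes with a sense model and red triangles the 142 without one; the solid line marks equal values and dashed lines a 2-fold difference. Red triangles gather at low levels in both columns.

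Of the sense genes with at least 10 TPM in either column, those with the highest ratios included zgc:112994, at 272 TPM in the control and 4.10 TPM in the α-amanitin column. Next to it stood mir2193, at 62.9 TPM in the control column and listed at 0 in the other, with antisense models of 1315 and 1252 bases. Its reference transcript has 110 bases, and whether strand was used is unknown. The value is therefore not shown to be the level of the microRNA gene. The level of crhr2, a receptor of the corticotropin-releasing hormone family, was 82.4 and 0.664 TPM, that of zgc:158604 55.5 and 0.122 TPM, and that of the Wnt inhibitor dkk1b 66.9 and 0.587 TPM. The ribosome biogenesis gene mak16 stood at 43.4 and 0.343 TPM. All 6 were far past 2-fold, and their antisense models were found in both libraries (zgc:112994, mir2193, mak16), in the untreated library alone (crhr2, zgc:158604) or in the α-amanitin library alone (dkk1b). Sense models of zgc:112994, zgc:158604 and mak16 were found in the α-amanitin library too. The low α-amanitin RefSeq values of these genes therefore do not show that they were silent. For mir2193, crhr2 and dkk1b no sense model was found in either library.

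The lowest ratios belonged to genes whose RefSeq transcripts were at or near 0 in the control column. They were pou5f3, a maternal transcription factor of genome activation (under 1 TPM and 96.6 TPM), metap2b, a methionine aminopeptidase gene (under 1 and 91.0 TPM), dnd1, a germ plasm RNA-binding protein gene (under 1 and 79.8 TPM), and adipor2 and peli2, listed at 0 in the control column and at 72.5 and 66.4 TPM in the other. Each of these 5 had a sense model in the long-read tables, so the near-0 RefSeq values do not show that the gene was silent. The sixth, lipg, had 7.60 and 461 TPM. Its antisense model of 313 bases was the same length in both libraries.

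Among the 5 most abundant sense genes, the topoisomerase gene top1l was listed at 520 TPM in the control and 388 TPM in the α-amanitin column, and the ribosomal protein gene rpl19 at 289 and 669 TPM. The gene rcc1, which encodes the exchange factor for the GTPase Ran, had 307 and 563 TPM, and the monocarboxylate transporter gene slc16a3 had 178 and 688 TPM. The gene cth1, a CCCH zinc-finger RNA-binding protein, had 68.4 and 763 TPM. Of these, rpl19, slc16a3 and cth1 were past 2-fold lower in the control column, and top1l and rcc1 were not.

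The shared genes with closely matched model lengths were listed at varied levels. The 3 with equal lengths were lipg, past 2-fold lower in the control column as given above, and top1l and ppp1r10 (64.1 and 43.1 TPM), within 2-fold. The exosome subunit gene exosc8 had 10.3 TPM in the control and 0.0431 TPM in the α-amanitin column, and aprt had 12.7 and 2.47 TPM, both past 2-fold higher. A class = model of exosc8 was found in the α-amanitin library too, so its near-0 value does not show that the gene was silent. The levels of mrpl4 (22.4 and 16.2 TPM), arrb2a (15.8 and 20.6 TPM) and zgc:113423 (4.80 and 4.32 TPM) were within 2-fold. The genes mep1a.2, kcnc1b and srd5a2a were under 1 TPM in both columns although antisense models were found in both libraries. Their closest pairs had 2199 and 2200, 1847 and 1869, and 853 and 855 bases. Among the other shared genes litaf (17.5 and 0.139 TPM), ubc (25.5 and 1.26 TPM) and zgc:113363 (18.2 and 1.06 TPM) were higher in the control column, and spsb1, a substrate adaptor of a ubiquitin ligase (19.8 and 493 TPM), rab20 (1.91 and 48.0 TPM) and fkrp (3.66 and 45.9 TPM) were lower. Class = models of litaf and ubc were also found in the α-amanitin library, despite their low values in that column. The genes ubc and its polyubiquitin relatives are near-identical, so their values are uncertain. Of the marker lists, ndr1, at 14.2 and 6.16 TPM, was the sole zygotic gene of 35 with an antisense model, and cldnd, a claudin gene that is not in the expression table, the sole maternal gene of 30, with an antisense model of 573 bases in the untreated library. On the general list of 8 it was ubb. Models of any class named 6 of the zygotic and 29 of the maternal genes. Antisense models named 347 of all 7662 named genes, so counts this small do not show that these lists lack antisense models.

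Gene families named by symbol were a small part of the sense genes. Ribosomal protein genes gave 1 of 347 (0.288%, 0.0509 to 1.61), where they were 1.11% of all named genes, and solute carriers 5 (1.44%, 0.617 to 3.33), where they were 1.63%. Genes with clone-based names made up 33 (9.51%, 6.85 to 13.1), where they were 9.64% of all named genes.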

How the data were processed

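The members and gene lists were chosen with earlier results of these data known. Per the series description, the authors assembled the long reads with IsoSeq, mapped them to GRCz10 with GMAP and classified them with Cuffcompare; versions are not given in the sources used here. The submitters' processing notes also name kallisto and bcl2fastq 1.8.3 without a role. The deposited FPKM columns held 0 models above 0 and were not used; the deposited length columns, listed as a score, are in bases. The deposited expression values are log2(TPM + 1), read from the values, since they sum to 1000000 TPM in the α-amanitin and 999999.972 in the control column; TPM keeps no depth. They cover 32575 transcripts, of which 15936 are RefSeq transcripts, and 15445 of these were given 1 of 14775 symbols. No value column was left unused (0 columns).

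Computed here: class counts, medians with order-statistic 95% intervals, Wilson 95% intervals, and log2 ratios with a pseudocount of 1 TPM and a 2-fold threshold. Functions were tested on simulated data. Python 3.11.15, numpy 2.4.6, pandas 2.3.3, scipy 1.17.1 and matplotlib 3.10.9 were used. Genes named were those with antisense models in both libraries or with several in 1, sense genes of the longest and shortest models, of the 5 longest class s models, the 6 highest and 6 lowest ratios at 10 TPM or more, the 5 most abundant, and genes of the zygotic and maternal lists. A search for neighbours on the opposite strand was not run, since the gene table gives no strand; overlap without strand replaced it after that table was seen. Alternatives are listed with their values in the closing section. Near-identical paralogs are uncertain.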

Additional observations from a re-analysis of the deposited data

How the results depend on the processing

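The share of antisense models, the median lengths, the 49 shared genes and the share with a sense model were recomputed with class x alone, with models of at least 500 bases and with the longest model of each locus. The number of shared genes ran from 42 to 48 under these. The α-amanitin median length became 1219.5 bases for models of at least 500 bases. With 1 model per locus, antisense models made up 1.94% of the untreated and 2.15% of the α-amanitin library. The share of antisense genes with a sense model became 42.9% with class = alone, 64.6% with class c added and 53.6% where the sense model had to be in the same library. Scaling the columns added the same amount to every gene, which took the median log2 ratio of the sense genes from -0.07 to 0.41 and that of all genes from 0.00 to 0.49, so its sign changed but not its place relative to other genes. The median became -0.44 among genes of at least 1 TPM in either column. At a 4-fold threshold 44 genes were higher and 54 lower. For the split by sense model, added after the values were seen, scaling gave medians of -0.041 with and 0.63 without a sense model, and a pseudocount of 0.1 gave 0.39 without one. Of 44 recomputed group values, 31 stayed within the interval of the reported value or within 1.5 times its count. Of 79 named genes, 10 crossed the 2-fold line under scaling and 6 under a pseudocount of 0.1. Causes of these shifts other than the settings themselves were not tested. No paired analysis was possible because each group holds 1 library. Read numbers behind models, and the depth of the TPM values, are unknown, so an unseen antisense model cannot be called absent.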
